A study of Mus musculus with 38 samples.

Results

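Mouse embryonic stem (ES) cells of the E14 line (129/Ola, XY) were kept for 8 days in 1 of 2 serum-free media that shared N2B27 and leukaemia inhibitory factor (LIF) and differed in which kinase was blocked. MEKi/L held 1 µM of the MEK inhibitor that the labels spell PD03259010 and no GSK3 inhibitor. GSK3i/L held CHIR99021, which inhibits GSK3, at 3 µM and left MEK free. The comparison was chosen by these group labels and took 3 MEKi/L and 3 GSK3i/L libraries, 6 of the 14 RNA libraries and of the 38 samples of the series. Cells of all groups were plated without feeder cells on gelatin in serum with LIF and changed to their medium the next day. Levels in 2i/L (1 µM MEK and 3 µM GSK3 inhibitor in the same N2B27 and LIF) and in S/L (serum with LIF and no inhibitor), 3 libraries each at 8 days, are given side by side with them and without a test. No library from N2B27 and LIF with neither inhibitor was analysed here, so a gene that was lower in MEKi/L may have been lowered there, raised in GSK3i/L or both, and these cannot be told apart. The libraries came from 1 cell line, and the labels do not say whether the replicates were separate cultures, so p-values measure the spread between these samples.

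MEK activates the kinase ERK, which in ES cells is driven mainly by autocrine FGF4 acting on FGF receptors, and ERK switches on both immediate early genes and its own inhibitors, the Sprouty, Spred and dual-specificity phosphatase genes. GSK3 marks beta-catenin for destruction, so that blocking GSK3 stabilises beta-catenin, which acts with TCF and LEF proteins on genes such as Axin2. TCF7L1 represses many of the same genes in ES cells. MEK and GSK3 inhibitors used together with LIF are known to hold ES cells in a naive state with low DNA methylation.

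Promoter sequences are shown for 3 Wnt/beta-catenin target genes that were lower in MEKi/L, as an example of windows with and without the TCF/LEF core. The sequences are from RefSeq (GRCm38.p6), 300 bases around the gene start on the plus strand, at chr2:70474673-70474972 for Sp5, chr17:8434173-8434472 for T and chr11:108920099-108920398 for Axin2. Capitals mark the core CTTTGA, searched on both strands.
Sp5: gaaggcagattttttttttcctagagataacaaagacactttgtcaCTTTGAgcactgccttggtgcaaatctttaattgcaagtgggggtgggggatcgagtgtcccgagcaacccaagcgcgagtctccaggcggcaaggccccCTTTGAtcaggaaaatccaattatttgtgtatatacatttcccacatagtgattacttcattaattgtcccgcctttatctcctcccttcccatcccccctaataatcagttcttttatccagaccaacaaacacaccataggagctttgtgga
T: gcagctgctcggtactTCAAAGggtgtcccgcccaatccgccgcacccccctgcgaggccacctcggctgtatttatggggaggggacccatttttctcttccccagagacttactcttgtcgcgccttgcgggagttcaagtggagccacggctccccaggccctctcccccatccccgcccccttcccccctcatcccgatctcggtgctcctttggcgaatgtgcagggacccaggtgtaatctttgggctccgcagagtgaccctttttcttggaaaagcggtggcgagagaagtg
Axin2: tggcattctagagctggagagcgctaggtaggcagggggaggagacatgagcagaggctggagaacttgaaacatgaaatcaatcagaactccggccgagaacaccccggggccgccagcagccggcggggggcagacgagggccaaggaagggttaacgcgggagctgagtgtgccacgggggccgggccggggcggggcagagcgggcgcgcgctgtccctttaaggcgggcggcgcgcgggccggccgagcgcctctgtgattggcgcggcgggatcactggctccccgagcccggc
The window of Sp5, which encodes a zinc finger factor downstream of Wnt, held the core at 2 places, and that of T, the mesoderm factor Brachyury, held it at 1 place on the minus strand. The window of Axin2 held none. Of the 13 Wnt list members that passed the test described below, 10 had a window examined, and 5 of these (Lef1, Sp5, Sp8, T and Tnfrsf19) held the core in at least 1 window. The 10 genes had 17 windows, of which 5 (29.4%) held it, against 16% of all 32851 RefSeq windows. The ETS core CCGGAAG was in 1 of the 17 windows (Rnf43, against 8.86% of all windows) and the CArG box of serum response factor in 1 (Lef1, against 1.63%). Of the 11 called members of the 2 ERK lists, 6 had a window, and none of the 6 held any of these motifs or the cyclic AMP response element TGACGTCA (1.79% of all windows). A match describes letters and is not a binding site.

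The RNA values were deposited as log2 of reads per 1000000 reads (RPM). Levels below are linear RPM, and a gene without reads is given as 0. RPM is not divided by transcript length, so levels are compared between groups and not between genes. Depth was 15760000, 13900000 and 10550000 reads in MEKi/L and about 18410000, 13120000 and 8080000 reads in GSK3i/L, and 13716 to 14234 genes per library reached 0.5 RPM. The MEKi/L columns were plain values, while those of GSK3i/L and S/L shared 1 matched distribution, a step that the labels do not describe. In both media replicate 1 stood apart from replicates 2 and 3 in its balance of 40 long against 40 short transcripts, a score of 0.61, −1.98 and −1.53 (mean log2 RPM, long minus short) in MEKi/L and 0.30, −1.75 and −2.79 in GSK3i/L. Of the 170 calls among named genes, 16 ended without both replicates 1 and 0 ended with the score as a term. The cells carried ES cell markers in both media. The summed level of Pou5f1, Sox2, Nanog, Sall4, Zfp42 and Esrrb was 4008 to 4112 RPM in MEKi/L and 3522 to 4403 RPM in GSK3i/L, 1 of the 6 (Nanog) was higher in MEKi/L and 0 were lower (limma, with 0 lower also at an unadjusted p under 0.05).

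**Figure D1:**
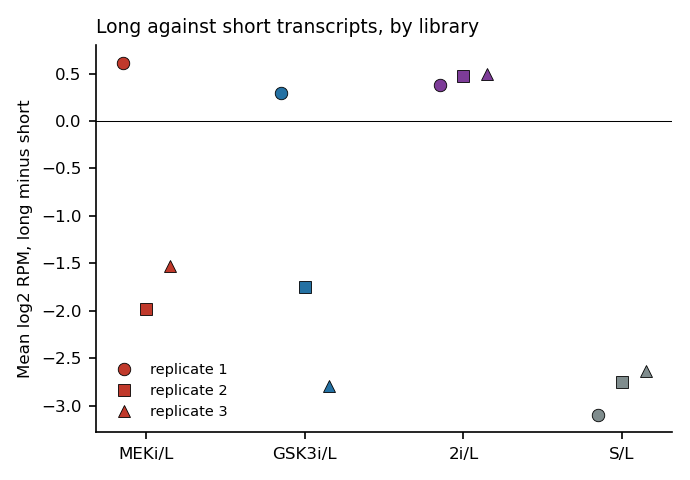
Mean log2 RPM of 40 long minus 40 short transcripts in each library at 8 days, by medium, with replicate 1, 2 and 3 as different symbols. Replicate 1 lies at 0.61 in MEKi/L and at 0.30 in GSK3i/L, above the other 2 replicates of each medium.

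Of 14980 genes tested, 1295 (8.64%) were at least 2-fold higher in MEKi/L and 624 (4.17%) at least 2-fold lower, with a limma Benjamini-Hochberg adjusted p under 0.05. The filter on low values asked for 0.5 RPM in 3 or more libraries. Tested genes that passed it through MEKi/L alone numbered 292, and 217 passed through GSK3i/L alone. The filter favoured a difference in these genes, and all counts and shares over tested genes include them. Leaving out genes with 0 reads in all libraries of 1 medium, 532 genes were higher and 285 lower at 4-fold or more, and 17 were higher and 25 lower at 32-fold or more. The share of higher genes among calls depended on scaling. It was 67.5% as deposited, and 56.1% (1072 higher, 839 lower) after quantile normalization, 56.5% (1046 and 806) after median centring and 60.0% (1121 and 746) after trimmed mean scaling. These moved the median log2 fold change of all genes from 0.09 to −0.04, −0.08 and −0.03. Fold changes below are as deposited. Median centring and trimmed mean scaling shift all of them alike, and quantile normalization shifts genes by different amounts.

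**Figure D2:**
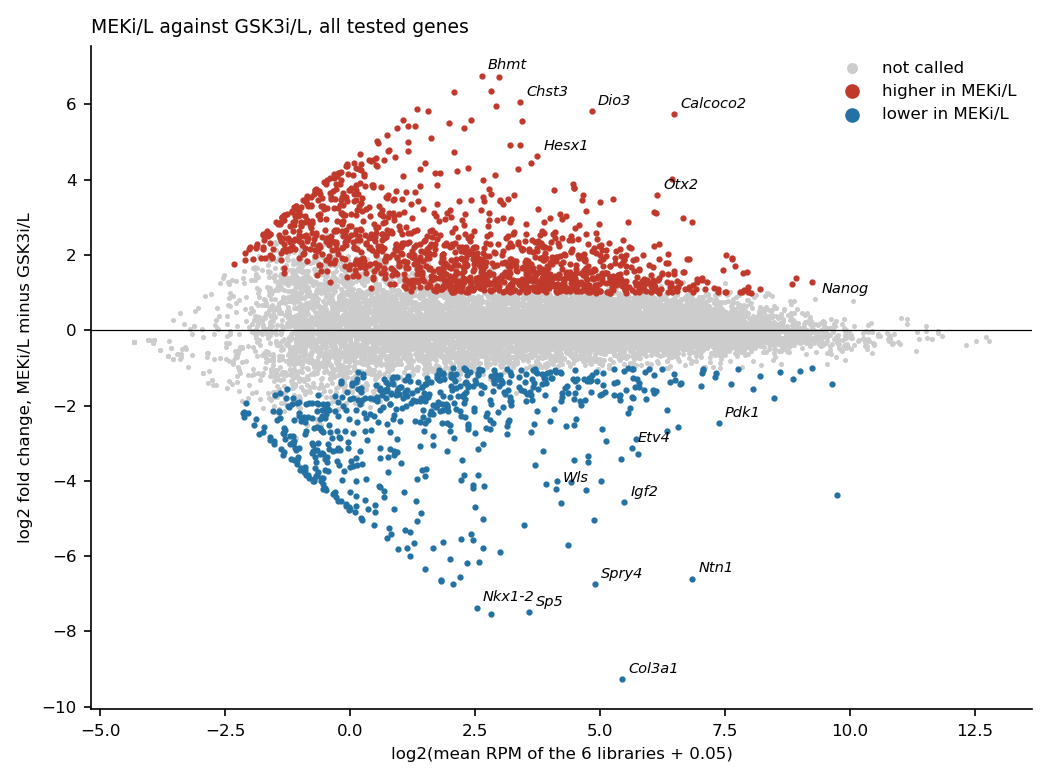
Log2 fold change, MEKi/L minus GSK3i/L, of each tested gene against log2 of its mean RPM in the 6 libraries plus 0.05. Red points are the 1295 genes called higher and blue points the 624 called lower in MEKi/L, and Col3a1 lies lowest.

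The 12 largest rises among genes that reached 5 RPM were Bhmt, Lrtm2, Ttll6, Sh3rf2, Chst3, Ctnna2, Dio3, Calcoco2, Atp2b2, Slc5a1, Hhip and Msln. Among them Ctnna2 had passed the filter on low values through MEKi/L alone, which favoured a difference. Calcoco2 encodes the autophagy receptor NDP52 (chromosome 11, 96099326 to 96111964, GRCm38). Calcoco2 stood at 219, 152 and 156 RPM in MEKi/L, against 3.29, 2.84 and 3.62 RPM in GSK3i/L. All 3 MEKi/L libraries lay far above all 3 GSK3i/L libraries, with a log2 fold change of 5.74 ± 0.23 (SE, limma adjusted p = 3.97e-09). Its mean was 104 ± 21.4 RPM in 2i/L and 16.8 ± 0.825 RPM in S/L (SD, n = 3 each). Dio3, the imprinted gene of the thyroid hormone-inactivating deiodinase, had 36.6, 64.4 and 65.9 RPM in MEKi/L, against 0.4702, 0.746 and 2.496 RPM in GSK3i/L. The values did not overlap (log2 fold change 5.81 ± 0.48, limma adjusted p = 2.23e-06), and Dio3 averaged 14.2 ± 3.35 RPM in 2i/L. Bhmt, which encodes the enzyme that remethylates homocysteine with betaine, had 10.9, 14.5 and 11.2 RPM in MEKi/L, against 0.0906, 0 and 0.182 RPM in GSK3i/L. The GSK3i/L values of Bhmt amounted to 2 reads in all, so no fold is given (limma adjusted p = 2.7e-07). Hhip, which encodes a hedgehog-binding antagonist, had 10.7, 8.13 and 9.38 RPM in MEKi/L, against 0.337, 0.403 and 0 RPM in GSK3i/L (log2 fold change 5.37 ± 0.50, limma adjusted p = 6.21e-06). Chst3, encoding a chondroitin sulfotransferase, had 26.8, 15.8 and 18.95 RPM in MEKi/L, against 0.791, 0.403 and 0 RPM in GSK3i/L (log2 fold change 6.06 ± 0.60, limma adjusted p = 9.93e-06). Neither gene's groups overlapped.

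The 12 largest falls were Col3a1, Tnc, Sp5, Nkx1-2, Nt5e, Spry4, Dkk2, Prrx1, Ntn1, Ptgs1, Ccdc80 and Col6a1. They held extracellular matrix genes, Wnt targets and an ERK feedback gene. Among them Tnc, Dkk2, Prrx1, Ccdc80 and Col6a1 had passed the filter on low values through GSK3i/L alone, which favoured a difference. Ntn1, encoding the guidance cue netrin-1 (chromosome 11, 68209364 to 68400823), had 3.11, 0.863 and 3.89 RPM in MEKi/L, against 325, 217 and 134 RPM in GSK3i/L. The MEKi/L libraries were low throughout (log2 fold change −6.60 ± 0.45, limma adjusted p = 3.6e-07). Its means were 105 ± 15.8 RPM in 2i/L and 22.2 ± 6.37 RPM in S/L. Nt5e, encoding the cell surface 5′-nucleotidase CD73, had 0 reads in all 3 MEKi/L libraries and 6.15, 4.44 and 14.2 RPM in GSK3i/L. Against a floor of 3 reads per library in MEKi/L it was at least 35-fold lower. Ccdc80, which encodes a matrix protein, also had 0 reads in MEKi/L and 6.78, 4.797 and 5.03 RPM in GSK3i/L, at least 24-fold lower.

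The first question of the comparison was how far ERK output differed where MEK itself was blocked. Of 13 tested ERK feedback inhibitors 6 fell, 0 rose and 7 did not pass (limma adjusted p under 0.05 at any fold, as for all lists below). Over all tested genes 5.65% were lower by this rule and 12.2% higher. With the long-minus-short score in the fit these shares were 11.1% and 20.5%, and 28 of the 74 counts of list members were more than 1.5 times those given below, with 0 less. The list's median log2 fold change was −0.58 against 0.09 for all genes, 7 members had an unadjusted p under 0.05 downward and 0 upward. Values of the 2 media did not overlap downward in 7 of the 13 (9.28% of all genes) and upward in 1 (18.4%), and 27.7% of all genes did not overlap in either direction. In fits without 1 library between 5 and 7 members were lower.

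Spry4, a Sprouty inhibitor of receptor tyrosine kinase signalling (chromosome 18, 38586268 to 38601268), had the largest fall of the list, with 1.21, 0.576 and 0.1895 RPM in MEKi/L, against 91.6, 35.3 and 49.1 RPM in GSK3i/L. Every GSK3i/L value was many times the highest MEKi/L value (log2 fold change −6.73 ± 0.66, limma adjusted p = 8.85e-06). In 2i/L it averaged 1.002 ± 0.981 RPM and in S/L 81.5 ± 26.9 RPM. Dusp4, a nuclear phosphatase of ERK, had 2.35, 2.45 and 1.71 RPM in MEKi/L, against 13.8, 23.01 and 9.33 RPM in GSK3i/L (log2 fold change −2.75 ± 0.39, limma adjusted p = 0.000183). Dusp6, a cytoplasmic phosphatase specific for ERK, had 20.3, 16.4 and 12.2 RPM in MEKi/L, against 73.2, 41.7 and 40.9 RPM in GSK3i/L. Its groups did not overlap, although the level in MEKi/L stayed well above 0 (log2 fold change −1.65 ± 0.27, limma adjusted p = 0.000561). Spred1, a membrane inhibitor of RAF activation, had 22.1, 16.5 and 16.7 RPM in MEKi/L, against 92.9, 62.7 and 77.6 RPM in GSK3i/L (log2 fold change −2.07 ± 0.19, limma adjusted p = 5.96e-06). Spry1 had 4.63, 3.38 and 3.13 RPM in MEKi/L, against 15.7, 18.1 and 10.9 RPM in GSK3i/L (log2 fold change −1.99 ± 0.28, limma adjusted p = 0.000206). Both were low in all MEKi/L libraries. Spred3 had 3.17, 2.95 and 3.32 RPM in MEKi/L, against 7.78, 5.15 and 6.34 RPM in GSK3i/L (log2 fold change −1.01 ± 0.25, limma adjusted p = 0.011), and without both replicates 1 its adjusted p was 0.0786.

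The 7 feedback genes that did not pass included paralogs of those that fell. Spry2 had 54.2, 34.3 and 50.8 RPM in MEKi/L, against 87.1, 61.04 and 59.4 RPM in GSK3i/L, and the groups did not overlap (log2 fold change −0.58 ± 0.21, limma adjusted p = 0.0698). Spred2 was at 50.7, 30.4 and 29.3 RPM in MEKi/L, against 55.6, 30.8 and 27.1 RPM in GSK3i/L (log2 fold change −0.014 ± 0.26, limma adjusted p = 0.984), with groups that overlapped fully. Dusp5 was at 3.300, 2.23 and 3.32 RPM in MEKi/L, against 3.82, 2.21 and 2.36 RPM in GSK3i/L and Dusp9, on the X chromosome, at 14.1, 13.4 and 9.19 RPM in MEKi/L, against 18.03, 15.7 and 10.4 RPM in GSK3i/L, both with overlapping groups. Log2 fold changes were 0.10 ± 0.29 for Dusp5, −0.26 ± 0.27 for Dusp9, −0.26 ± 0.28 for Dusp7, 0.37 ± 0.19 for Lrig1 and 0.21 ± 0.19 for Errfi1, the last 2 being inhibitors of the EGF receptor family. Dusp9 averaged 11.2 ± 2.85 RPM in 2i/L and 87.2 ± 14.9 RPM in S/L.

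Of 19 tested immediate early and ETS genes 4 fell (Egr1, Fosl2, Etv4 and Phlda1), 1 rose (Ets2) and 14 did not pass, at a median of −0.18. Etv4, an ETS factor of the PEA3 group that FGF signalling induces (chromosome 11, 101769742 to 101785371), had 12.7, 8.92 and 7.01 RPM in MEKi/L, against 149, 54.4 and 64.6 RPM in GSK3i/L. The lowest GSK3i/L library was still several times the highest MEKi/L library (log2 fold change −3.12 ± 0.31, limma adjusted p = 1.18e-05). Its close relative Etv5 was abundant in both media, at 238, 133 and 158 RPM in MEKi/L, against 316, 230.0 and 153 RPM in GSK3i/L, and did not pass (log2 fold change −0.38 ± 0.26, limma adjusted p = 0.369). Fosl2, an AP-1 subunit, had 0.381, 0.432 and 0.663 RPM in MEKi/L, against 3.73, 2.297 and 2.23 RPM in GSK3i/L (log2 fold change −2.48 ± 0.42, limma adjusted p = 0.000817). Phlda1 had 2.28, 1.65 and 1.801 RPM in MEKi/L, against 5.02, 3.57 and 5.29 RPM in GSK3i/L (log2 fold change −1.27 ± 0.30, limma adjusted p = 0.00891). Ets2, the ETS factor that went the other way, had 51.02, 38.5 and 34.02 RPM in MEKi/L, against 22.3, 16.3 and 10.7 RPM in GSK3i/L, with no overlap (log2 fold change 1.37 ± 0.24, limma adjusted p = 0.000934). It averaged 56.02 ± 5.89 RPM in 2i/L and 14.9 ± 1.87 RPM in S/L.

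Egr1, an early growth response factor, is usually read as a marker of ERK activity and was the least stable call of the list. It had 1.02, 0.3598 and 0.379 RPM in MEKi/L, against 8.85, 3.15 and 0.7396 RPM in GSK3i/L, and GSK3i/L replicate 3 lay below MEKi/L replicate 1. The log2 fold change was −2.41 ± 0.73 (limma adjusted p = 0.0327) and −1.56 without GSK3i/L replicate 1. Adjusted p was 0.104 without MEKi/L replicate 2, 0.112 without MEKi/L replicate 3, 0.118 without GSK3i/L replicate 1, 0.0952 without GSK3i/L replicate 2 and 0.0525 without both replicates 1. Myc, a proliferation factor and ERK and beta-catenin target, had 8.82, 2.16 and 3.696 RPM in MEKi/L, against 21.1, 6.22 and 17.4 RPM in GSK3i/L. GSK3i/L replicate 2 fell within the range of MEKi/L, and Myc did not pass (log2 fold change −1.67 ± 0.56, limma adjusted p = 0.0518), whereas with the replicate number as a block its adjusted p was 0.0208. Fos had 3.93, 3.81 and 3.22 RPM in MEKi/L, against 2.37, 2.84 and 1.44 RPM in GSK3i/L and Jun 6.54, 9.07 and 6.25 RPM in MEKi/L, against 7.95, 15.3 and 3.87 RPM in GSK3i/L, and neither passed (log2 fold change 0.77 ± 0.37 and −0.11 ± 0.39). Without GSK3i/L replicate 1 the list had 2 members higher in place of 1, and with the long-minus-short score in the fit it had 7 lower in place of 4.

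Among 24 tested components of the RAS-RAF-MEK-ERK cascade itself, 0 passed in either direction by limma, with 2 upward and 1 downward at an unadjusted p under 0.05 and a median of 0.06. Map2k1 and Map2k2, which encode the kinases MEK1 and MEK2, were at 235, 158 and 152 RPM in MEKi/L, against 172, 149.6 and 88.9 RPM in GSK3i/L, and at 103, 74.3 and 72.6 RPM in MEKi/L, against 104, 92.3 and 65.9 RPM in GSK3i/L. Their log2 fold changes were 0.43 ± 0.24 and −0.063 ± 0.19. The zero counts held in part of the alternatives, with up to 2 members called in either direction without 1 library and up to 3 higher and 6 lower with the long-minus-short score.

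Above ERK, of 14 tested genes for FGF ligands and receptors 6 rose and 8 did not pass, at a median of 0.89, with 0 lower by limma (1 at an unadjusted p under 0.05, and 1 passing under each of the 3 other scalings). Fgf4, which encodes the main autocrine FGF of ES cells (chromosome 7, 144861386 to 144865243), had 416, 351 and 327 RPM in MEKi/L, against 183, 237 and 158 RPM in GSK3i/L. All MEKi/L values were above all GSK3i/L values (log2 fold change 0.93 ± 0.23, limma adjusted p = 0.0101), and without both replicates 1 the adjusted p was 0.052. Fgfr1, its main receptor in these cells, had 117, 72.96 and 87.3 RPM in MEKi/L, against 50.8, 49.6 and 32.7 RPM in GSK3i/L (log2 fold change 1.06 ± 0.23, limma adjusted p = 0.0056). Fgf10 had 20.2, 10.6 and 14.03 RPM in MEKi/L, against 5.08, 3.06 and 4.502 RPM in GSK3i/L (log2 fold change 1.81 ± 0.26, limma adjusted p = 0.00024). Fgf15, an early neural and formative stage ligand, had 4.51, 2.59 and 3.79 RPM in MEKi/L, against 0.734, 0.492 and 0.182 RPM in GSK3i/L (log2 fold change 3.13 ± 0.49, limma adjusted p = 0.000421). The remaining 2 were Fgf3 (log2 fold change 1.44 ± 0.35, adjusted p 0.051 without MEKi/L replicate 2) and Fgfr2 (0.85 ± 0.24). Fgfr2 missed the threshold without MEKi/L replicate 1 (0.0842), MEKi/L replicate 3 (0.0562) or GSK3i/L replicate 2 (0.102). Its call also ended under quantile normalization, under median centring and in the 6 libraries alone. The Fgfr2 entry spans 130162451 to 133123350 on chromosome 7 and covers other genes, such as Ate1 and Nsmce4a on the same strand. Whether its level includes their reads was not tested.

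**Figure D3:**
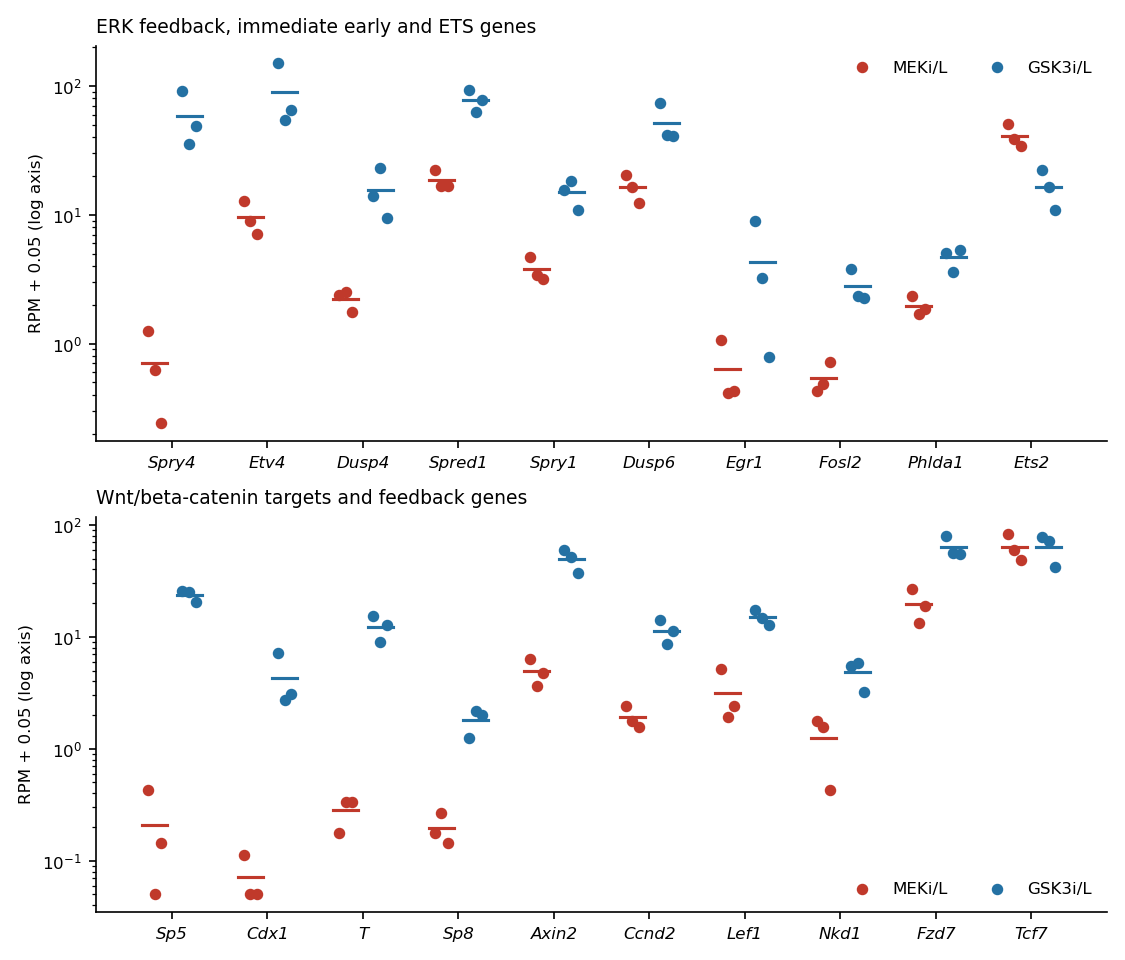
RPM plus 0.05 on a log axis in each of the 3 MEKi/L (red, left) and 3 GSK3i/L (blue, right) libraries for ERK feedback, immediate early and ETS genes (above) and Wnt/beta-catenin targets (below), with bars at the group means. Spry4 and Etv4 are lower in every MEKi/L library and Ets2 is higher, and among Wnt targets Sp5, Cdx1 and T are near 0 in MEKi/L while Tcf7 overlaps.

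The second question was how far Wnt/beta-catenin targets differed where GSK3 was blocked in 1 medium only. Of 20 tested targets and feedback genes 12 were lower in MEKi/L, 1 was higher and 7 did not pass. The median log2 fold change was −1.98, or −1.66 with Cdx2, which had 0 reads in MEKi/L, at its bound. In fits without 1 library 11 or 12 members were lower, and up to 3 were higher, the most without GSK3i/L replicate 1.

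Sp5 (chromosome 2, 70474923 to 70477729) had the largest fall of the list, with 0.381, 0 and 0.0948 RPM in MEKi/L, against 25.8, 25.1 and 20.5 RPM in GSK3i/L. It was nearly silent in all 3 MEKi/L libraries, and GSK3i/L libraries lay within a narrow band (log2 fold change −7.48 ± 0.54, limma adjusted p = 5.94e-07). This fold rests on few MEKi/L reads and ran from −8.24 to −4.43 over the 20 alternative fits. Means were 23.2 ± 6.71 RPM in 2i/L and 3.27 ± 1.57 RPM in S/L. Axin2, the scaffold of the beta-catenin destruction complex and a feedback gene of the pathway (chromosome 11, 108920349 to 108950783), had 6.28, 3.598 and 4.74 RPM in MEKi/L, against 59.2, 51.4 and 36.9 RPM in GSK3i/L. The groups were far apart (log2 fold change −3.34 ± 0.24, limma adjusted p = 5.6e-07), and Axin2 averaged 66.99 ± 9.65 RPM in 2i/L and 5.32 ± 0.989 RPM in S/L. Lef1, a TCF/LEF factor, had 5.14, 1.87 and 2.37 RPM in MEKi/L, against 17.3, 14.8 and 12.6 RPM in GSK3i/L (log2 fold change −2.38 ± 0.33, limma adjusted p = 0.000173). It averaged 1.09 ± 0.199 RPM in 2i/L, where Axin2 was high, and 13.99 ± 3.12 RPM in S/L, where Axin2 was low. Tcf7, another factor of that family, had 82.1, 59.9 and 49.00 RPM in MEKi/L, against 77.7, 72.4 and 41.9 RPM in GSK3i/L, with overlapping groups (log2 fold change 0.011 ± 0.26, limma adjusted p = 0.987).

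Cdx1, a caudal homeobox factor, had 0.0635, 0 and 0 RPM in MEKi/L, against 7.08, 2.698 and 3.02 RPM in GSK3i/L. With 1 read over the MEKi/L libraries it is given without a fold (limma adjusted p = 1.36e-05). Cdx2, its relative in trophoblast and posterior tissues, had 0 reads in MEKi/L and 0.868, 0.215 and 0.603 RPM in GSK3i/L. It was at least 2-fold lower, and without both replicates 1 its adjusted p was 0.0742. Sp8 had 0.127, 0.216 and 0.0948 RPM in MEKi/L, against 1.196, 2.12 and 1.96 RPM in GSK3i/L (log2 fold change −3.64 ± 0.48, limma adjusted p = 0.000116). Rnf43, which encodes a ubiquitin ligase that removes Frizzled receptors, had 0.0635, 0 and 0 RPM in MEKi/L, against 0.734, 2.297 and 0.7396 RPM in GSK3i/L, again with 1 read over the MEKi/L group (limma adjusted p = 7.95e-05). Its partner in that role, Znrf3, had 15.6, 8.63 and 11.6 RPM in MEKi/L, against 18.95, 13.5 and 13.04 RPM in GSK3i/L and did not pass (limma adjusted p = 0.386).

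Ccnd2, encoding cyclin D2, had 2.35, 1.73 and 1.52 RPM in MEKi/L, against 13.99, 8.64 and 11.2 RPM in GSK3i/L (log2 fold change −2.59 ± 0.36, limma adjusted p = 0.000184). Cyclin D1, from Ccnd1, did not pass, at 213, 132 and 143 RPM in MEKi/L, against 139, 94.6 and 97.7 RPM in GSK3i/L (log2 fold change 0.55 ± 0.21, limma adjusted p = 0.0817). Fzd7, a Frizzled receptor, had 26.7, 13.2 and 18.7 RPM in MEKi/L, against 78.9, 56.6 and 54.8 RPM in GSK3i/L (log2 fold change −1.74 ± 0.23, limma adjusted p = 0.000132). Nkd1, an inhibitor of Dishevelled, had 1.71, 1.51 and 0.379 RPM in MEKi/L, against 5.39, 5.76 and 3.16 RPM in GSK3i/L (log2 fold change −2.21 ± 0.54, limma adjusted p = 0.0102). Its groups did not overlap, and MEKi/L replicate 3 was the lowest. Tnfrsf19 had 5.77, 4.75 and 7.01 RPM in MEKi/L, against 13.2, 11.8 and 12.5 RPM in GSK3i/L (log2 fold change −1.11 ± 0.23, limma adjusted p = 0.00377). Apcdd1, an inhibitor of Wnt receptors, was the 1 member that rose, with 9.58, 10.00 and 8.72 RPM in MEKi/L, against 4.66, 3.22 and 3.87 RPM in GSK3i/L (log2 fold change 1.28 ± 0.28, limma adjusted p = 0.00475). Nkd2, Notum, Dkk1 and Bambi did not pass, at log2 fold changes of −1.58 ± 0.66, 0.088 ± 0.29, 1.80 ± 0.79 and 0.28 ± 0.25.

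Of 21 core components of the pathway 2 rose, 2 fell and 17 did not pass, at a median of 0.18. Gsk3a, Gsk3b and Ctnnb1, the gene of beta-catenin, were among the 17 (log2 fold changes −0.066 ± 0.23, 0.66 ± 0.27 and 0.24 ± 0.26). Tcf7l1, encoding the repressor of the TCF family, was higher, at 232, 137 and 136 RPM in MEKi/L, against 50.96, 50.7 and 33.2 RPM in GSK3i/L (log2 fold change 1.89 ± 0.26, limma adjusted p = 0.000143). Tcf7l2 had 21.3, 13.9 and 17.2 RPM in MEKi/L, against 8.45, 5.76 and 5.42 RPM in GSK3i/L (log2 fold change 1.42 ± 0.27, limma adjusted p = 0.002). For both, every MEKi/L library was above every GSK3i/L library. Both genes needed to release Wnt ligands fell. Porcn, encoding the enzyme that acylates Wnt proteins, had 0.508, 0 and 0.1895 RPM in MEKi/L, against 11.3, 5.84 and 9.84 RPM in GSK3i/L (log2 fold change −5.55 ± 0.56, limma adjusted p = 1.15e-05). Wls, encoding their carrier, had 1.27, 2.09 and 1.895 RPM in MEKi/L, against 24.9, 26.7 and 47.5 RPM in GSK3i/L (log2 fold change −4.21 ± 0.28, limma adjusted p = 2.76e-07). In S/L, without an inhibitor, Porcn averaged 17.6 ± 4.87 RPM and Wls 14.2 ± 3.34 RPM, and in 2i/L 0.532 ± 0.141 and 3.45 ± 0.394 RPM.

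Wnt ligands, receptors and secreted antagonists moved both ways, with 10 of 29 tested members higher, 5 lower and 14 not passing, at a median of 0.32. Rspo2 had passed the filter on low values through MEKi/L alone, and Frzb, Dkk2 and Rspo3 through GSK3i/L alone. That is, fewer than 3 libraries of the other groups reached 0.5 RPM. The filter thus favoured a difference in these 4. Of the other 25 members 9 were higher and 2 lower. Those higher were Wnt3, Wnt5a, Wnt7b, Fzd9, Fzd10, Sfrp1, Sfrp2, Sfrp5, Rspo1 and Rspo2. Wnt7b, a ligand, had 3.87, 4.89 and 4.26 RPM in MEKi/L, against 0.141, 0 and 0 RPM in GSK3i/L, with 2 reads over the GSK3i/L libraries (limma adjusted p = 2.51e-07). Rspo2, an R-spondin that amplifies Wnt signals, had 0.698, 1.15 and 1.61 RPM in MEKi/L and 0 reads in GSK3i/L, at least 3-fold higher. Wnt5b, a ligand, had 0.127, 0 and 0.1895 RPM in MEKi/L, against 7.98, 6.800 and 8.68 RPM in GSK3i/L (log2 fold change −6.07 ± 0.40, limma adjusted p = 2.51e-07). Secreted antagonists were split. Dkk2 had 0 reads in MEKi/L and 7.68, 6.27 and 6.81 RPM in GSK3i/L, at least 30-fold lower. Frzb had 0.1904, 0.144 and 0.0948 RPM in MEKi/L, against 10.01, 6.41 and 4.76 RPM in GSK3i/L (log2 fold change −5.61 ± 0.47, limma adjusted p = 2.27e-06), and Sfrp5 had 3.62, 2.73 and 2.46 RPM in MEKi/L, against 0, 0.318 and 0.603 RPM in GSK3i/L (log2 fold change 3.52 ± 0.69, limma adjusted p = 0.00242).

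Primitive streak and mesoderm genes also divided. Of 10 tested (of 18 in the table) 4 fell, 3 rose and 3 did not pass, at a median of −1.08. T, the streak factor Brachyury (chromosome 17, 8434423 to 8442496), had 0.127, 0.288 and 0.284 RPM in MEKi/L, against 15.2, 8.92 and 12.7 RPM in GSK3i/L (log2 fold change −5.78 ± 0.54, limma adjusted p = 5.96e-06). Nkx1-2, a homeobox gene of the caudal epiblast, had 0 reads in MEKi/L and 12.5, 8.54 and 13.3 RPM in GSK3i/L. It was at least 49-fold lower and averaged 35.3 ± 2.92 RPM in 2i/L. Nkx1-2 lies within the annotated span of the Fgfr2 entry on the same strand (chromosome 7, 130162451 to 133123350). That span also covers Ate1, Nsmce4a, Tacc2 and further genes, and the Fgfr2 entry was higher in MEKi/L. Evx1 had passed the filter through GSK3i/L alone, which favoured a difference. It had 0.1904, 0.07196 and 0 RPM in MEKi/L, against 1.38, 0.746 and 0.876 RPM in GSK3i/L (log2 fold change −3.20 ± 0.58, limma adjusted p = 0.00127). Gsc, the organizer and anterior streak factor Goosecoid, had 6.98, 10.8 and 6.92 RPM in MEKi/L, against 0.597, 0.403 and 0.324 RPM in GSK3i/L, every MEKi/L value being several times the highest GSK3i/L value (log2 fold change 4.24 ± 0.32, limma adjusted p = 9.86e-07). Its means were 16.7 ± 1.86 RPM in 2i/L and 0.175 ± 0.0347 RPM in S/L. Summed levels of 6 streak markers (T, Mixl1, Eomes, Mesp1, Evx1 and Gsc) were 9.951 to 14.25 RPM in MEKi/L and 16.78 to 26.63 RPM in GSK3i/L.

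**Figure D4:**
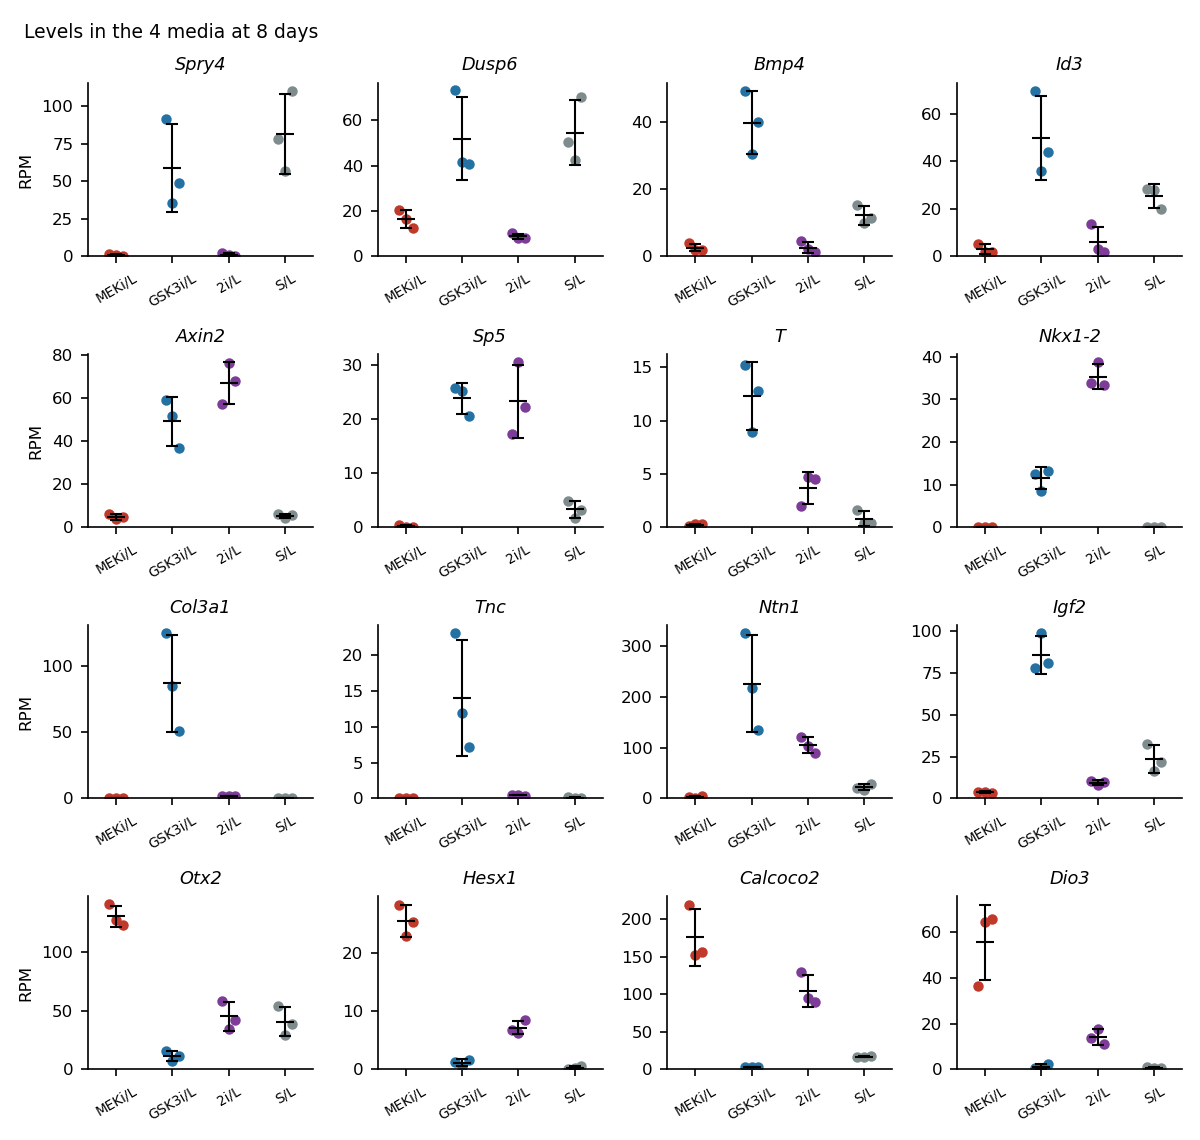
RPM of 16 genes in each library at 8 days in MEKi/L (red), GSK3i/L (blue), 2i/L (purple) and S/L (grey), with mean and SD (n = 3 each). The ERK feedback genes Spry4 and Dusp6 are low in MEKi/L and 2i/L, Axin2 and Sp5 are high in GSK3i/L and 2i/L, and Col3a1 and Tnc are high in GSK3i/L alone of the 4 media at 8 days. Libraries of GSK3i/L at 24 days, in which Col3a1 and Tnc were at 0, are not drawn.

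Fibroblast and mesenchymal genes encode fibrillar collagens, matrix proteins and mesenchymal transcription factors. Of 24 tested members 15 were lower in MEKi/L, 0 higher (1 at an unadjusted p under 0.05) and 9 did not pass, at a median log2 fold change of −2.63. With 4 members at 0 reads in MEKi/L set to their bound the median was −2.06. Among the 24, 8 had passed the filter on low values through GSK3i/L alone, which favoured a difference. Of the other 16 members 7 were lower. Between 13 and 18 members were lower in fits without 1 library, and 17 or 18 under other scalings.

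Col3a1, the gene of collagen III (chromosome 1, 45311538 to 45349706), showed the largest fall of all named genes, with 0, 0.144 and 0.284 RPM in MEKi/L, against 124, 84.99 and 51.00 RPM in GSK3i/L. It was almost absent from MEKi/L and spread over a more than 2-fold range within GSK3i/L, with replicate 1 highest (log2 fold change −9.26 ± 0.56, limma adjusted p = 2.51e-07). Means were 1.84 ± 0.1697 RPM in 2i/L and 0.132 ± 0.122 RPM in S/L. The collagen I genes followed. Col1a1 had 2.22, 1.87 and 0.948 RPM in MEKi/L, against 86.1, 53.6 and 30.5 RPM in GSK3i/L (log2 fold change −5.04, limma adjusted p = 1.12e-06), and Col1a2 had 0.254, 0.144 and 0.284 RPM in MEKi/L, against 12.4, 14.3 and 4.63 RPM in GSK3i/L (log2 fold change −5.42, limma adjusted p = 8.35e-06). Col6a1 and Col6a2, which encode chains of collagen VI, had log2 fold changes of −6.18 ± 0.73 and −5.78 ± 0.59. Tnc, encoding the matrix glycoprotein tenascin C, had 0 reads in MEKi/L and 23.03, 11.9 and 7.16 RPM in GSK3i/L, at least 60-fold lower. Cdh11, the mesenchymal cadherin, had 0.127, 0.3598 and 0 RPM in MEKi/L, against 13.7, 7.55 and 13.8 RPM in GSK3i/L (log2 fold change −6.16 ± 0.60, limma adjusted p = 8.35e-06). Prrx1, a limb and facial mesenchyme factor, had 0 reads in MEKi/L and 8.33, 5.15 and 7.26 RPM in GSK3i/L, at least 30-fold lower. The groups did not overlap for any of these 8 genes. Of them Col6a1, Col6a2, Tnc, Cdh11 and Prrx1 had passed the filter through GSK3i/L alone, which favoured a difference. In both GSK3i/L libraries at 24 days Col3a1, Tnc, Prrx1 and Col6a1 were at 0, and Col1a1 stood at 0.152 and 0.264 RPM. Thy1, a list member that did not pass, stood at 4.79 and 5.81 RPM there.

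These are bulk samples, in which fewer cells of a type and less RNA per cell cannot be told apart. Summed over 8 fibroblast and mesenchymal markers the level was 6.444 to 10.6 RPM in MEKi/L and 105.8 to 249.3 RPM in GSK3i/L, with 6 of the 8 lower and Prrx1 and Postn at 0 in MEKi/L. The labels give feeder-free culture. The S/L libraries, also of 8 days, had Col3a1 and Tnc near 0 and Prrx1 and Postn at 0. They held Col1a1 at 5.95, 4.11 and 5.12 RPM, Thy1 at 5.81, 5.60 and 5.02 RPM and Twist1 at 1.62, 2.68 and 2.18 RPM. The cells as first plated were not sequenced among the libraries used here. The part of such cells in the falls of this list was not tested.

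Serum response factor targets of the contractile cytoskeleton did not move as a group, with 3 of 15 lower, 2 higher and 10 not passing, at a median of 0.09. The 3 that fell were Acta2 (smooth muscle actin), with 1.59, 2.01 and 1.04 RPM in MEKi/L, against 35.7, 38.3 and 33.5 RPM in GSK3i/L (log2 fold change −4.58 ± 0.37, limma adjusted p = 1.61e-06), Tagln (transgelin) and Zyx (zyxin). Tagln had 3.49, 6.33 and 1.99 RPM in MEKi/L, against 37.3, 51.8 and 94.1 RPM in GSK3i/L (log2 fold change −4.005 ± 0.44, limma adjusted p = 2.21e-05) and Zyx 5.39, 5.54 and 3.41 RPM in MEKi/L, against 29.2, 23.01 and 13.2 RPM in GSK3i/L (log2 fold change −2.15 ± 0.28, limma adjusted p = 0.000112). MEKi/L was lower in every library for each. Ctgf, a target also of YAP, rose, with 27.5, 24.9 and 24.5 RPM in MEKi/L, against 16.1, 14.4 and 14.2 RPM in GSK3i/L (log2 fold change 0.78 ± 0.18, limma adjusted p = 0.00693), as did Cnn2, whose call ended in a fit of the 6 libraries alone (adjusted p 0.0718). Tagln was highest in S/L, at 279 ± 109.7 RPM.

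Epithelial junction genes had 4 of 21 members lower, 2 higher and 15 not passing, at a median of 0.12. Epcam, the epithelial adhesion molecule, had 32.05, 35.4 and 26.1 RPM in MEKi/L, against 74.02, 77.3 and 76.1 RPM in GSK3i/L, values tight within each medium (log2 fold change −1.29 ± 0.18, limma adjusted p = 0.000142). Esrp1, an epithelial splicing regulator, had 4.44, 4.53 and 2.75 RPM in MEKi/L, against 14.8, 19.04 and 9.601 RPM in GSK3i/L (log2 fold change −1.87 ± 0.39, limma adjusted p = 0.00359). The claudins Cldn3 and Cldn7 made up the 4, and the list had 2 lower without MEKi/L replicate 1, MEKi/L replicate 3, GSK3i/L replicate 2 or GSK3i/L replicate 3. Dsp, the desmosomal plaque gene, had 43.8, 12.7 and 16.1 RPM in MEKi/L, against 8.25, 6.800 and 1.57 RPM in GSK3i/L (log2 fold change 2.22 ± 0.53, limma adjusted p = 0.00853), and 1.47 without GSK3i/L replicate 3. The count of higher members was 1 without MEKi/L replicate 1, MEKi/L replicate 3 or GSK3i/L replicate 2 and 4 without GSK3i/L replicate 1.

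Of 19 BMP, SMAD and ID genes 4 fell (Bmp4, Id1, Id3 and Msx2), 3 rose (Smad6, Id2 and Id4) and 12 did not pass, at a median of −0.21. Bmp4, the BMP ligand of ES cells (chromosome 14, 46383520 to 46390669), had 3.93, 1.87 and 1.895 RPM in MEKi/L, against 49.2, 30.4 and 39.99 RPM in GSK3i/L (log2 fold change −4.02 ± 0.40, limma adjusted p = 1.15e-05). The inhibitors of differentiation it induces were split. Id3 had 5.27, 1.73 and 1.801 RPM in MEKi/L, against 69.4, 35.8 and 43.99 RPM in GSK3i/L (log2 fold change −4.24 ± 0.61, limma adjusted p = 0.000226) and Id1 1.46, 0.3598 and 0.569 RPM in MEKi/L, against 7.68, 3.42 and 14.4 RPM in GSK3i/L (log2 fold change −3.43 ± 0.49, limma adjusted p = 0.000218). Both were low in every MEKi/L library. Id2 had 8.57, 15.8 and 12.98 RPM in MEKi/L, against 4.66, 2.998 and 5.67 RPM in GSK3i/L (log2 fold change 1.49 ± 0.28, limma adjusted p = 0.00178) and Id4 35.6, 26.1 and 23.98 RPM in MEKi/L, against 10.2, 8.304 and 9.08 RPM in GSK3i/L (log2 fold change 1.62 ± 0.21, limma adjusted p = 0.000109). Both were high there without overlap. Msx2, another BMP target, had 0.0635, 0.144 and 0.0948 RPM in MEKi/L, against 2.35, 0.995 and 1.44 RPM in GSK3i/L (log2 fold change −3.98 ± 0.73, limma adjusted p = 0.0014). Without GSK3i/L replicate 1 the number of higher members was 5.

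In the Nodal and activin pathway 4 of 15 members rose, 0 fell and 11 did not pass, at a median of 0.40, with 5 upward and 1 downward at an unadjusted p under 0.05. With the replicate block 1 member fell. Nodal had 74.2, 84.5 and 80.9 RPM in MEKi/L, against 38.9, 31.4 and 54.2 RPM in GSK3i/L (log2 fold change 0.98 ± 0.19, limma adjusted p = 0.00188). Its feedback inhibitors rose too. Lefty1 had 97.1, 56.3 and 48.05 RPM in MEKi/L, against 16.1, 17.5 and 23.2 RPM in GSK3i/L (log2 fold change 1.78 ± 0.29, limma adjusted p = 0.000625) and Lefty2 502, 240.1 and 223 RPM in MEKi/L, against 121, 64.1 and 99.5 RPM in GSK3i/L (log2 fold change 1.71 ± 0.31, limma adjusted p = 0.00135). Smad3, the signal transducer, had 57.2, 31.4 and 35.5 RPM in MEKi/L, against 15.7, 14.1 and 8.15 RPM in GSK3i/L (log2 fold change 1.71 ± 0.31, limma adjusted p = 0.00139). No MEKi/L value of the 4 genes lay within the GSK3i/L range.

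In the LIF and STAT3 pathway 2 of 15 members rose, 0 fell and 13 did not pass, at a median of 0.18, with 3 upward and 1 downward at an unadjusted p under 0.05. Lif itself had 10.7, 7.84 and 7.11 RPM in MEKi/L, against 4.88, 3.15 and 2.77 RPM in GSK3i/L (log2 fold change 1.27 ± 0.25, limma adjusted p = 0.0026). Lifr, its receptor, had overlapping values (132, 75.98 and 96.5 RPM in MEKi/L, against 85.4, 40.99 and 47.5 RPM in GSK3i/L) and a call that ended without MEKi/L replicate 1 (adjusted p 0.121), MEKi/L replicate 3 (0.0766), GSK3i/L replicate 2 (0.145) or GSK3i/L replicate 3 (0.0775), so that 1 member was then higher. Without MEKi/L replicate 1, 1 member was lower.

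Pluripotency factors were expressed in both media. Among 18 naive factors 5 rose, 2 fell and 11 did not pass, at a median of 0.17, and 1 rose in a fit of the 6 libraries alone. Nanog (chromosome 6, 122707489 to 122714633) had 718, 876 and 827 RPM in MEKi/L, against 399.8, 404 and 570.4 RPM in GSK3i/L, without overlap (log2 fold change 0.83 ± 0.18, limma adjusted p = 0.00549), and an adjusted p of 0.0902 in the 6 libraries alone. Prdm14, a repressor of de novo methyltransferase genes, had 64.5, 35.8 and 38.95 RPM in MEKi/L, against 23.96, 14.2 and 18.3 RPM in GSK3i/L (log2 fold change 1.28 ± 0.25, limma adjusted p = 0.0024). Fbxo15 had 535, 803 and 701 RPM in MEKi/L, against 178, 210.3 and 455 RPM in GSK3i/L (log2 fold change 1.38 ± 0.29, limma adjusted p = 0.00353, and 0.0539 in the 6 libraries alone). Gbx2, a homeobox gene downstream of LIF, fell, with 2.28, 1.22 and 1.61 RPM in MEKi/L, against 34.7, 25.99 and 24.3 RPM in GSK3i/L (log2 fold change −4.08 ± 0.26, limma adjusted p = 2.51e-07). Tdh, the threonine dehydrogenase of mouse ES cells, had 386, 289.8 and 302 RPM in MEKi/L, against 903, 605 and 572 RPM in GSK3i/L (log2 fold change −1.07 ± 0.20, limma adjusted p = 0.00178). Pou5f1, Sox2, Esrrb and Tfcp2l1 did not pass, at log2 fold changes of −0.27 ± 0.17, 0.28 ± 0.27, −0.32 ± 0.32 and −0.32 ± 0.35. Among 12 general pluripotency genes 2 fell, the RNA-binding Lin28a and Lin28b, and 0 rose, with 1 upward at an unadjusted p under 0.05 and 1 passing without GSK3i/L replicate 1. Lin28b had 8.69, 6.04 and 8.25 RPM in MEKi/L, against 25.7, 15.5 and 21.5 RPM in GSK3i/L (log2 fold change −1.43 ± 0.22, limma adjusted p = 0.00033). The call of Lin28a ended without MEKi/L replicate 2 (adjusted p 0.14), MEKi/L replicate 3 (0.13), GSK3i/L replicate 1 (0.122) or GSK3i/L replicate 2 (0.0839).

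Of 18 formative and primed genes 7 rose, 2 fell and 9 did not pass, at a median of 0.63. Otx2, a homeodomain factor of the formative epiblast and the forebrain (chromosome 14, 48657679 to 48667644), had 140.4, 127 and 123 RPM in MEKi/L, against 15.4, 7.37 and 11.2 RPM in GSK3i/L. All 3 MEKi/L libraries were several times the highest GSK3i/L library (log2 fold change 3.59 ± 0.29, limma adjusted p = 1.61e-06), and the means were 45.1 ± 12.02 RPM in 2i/L and 40.6 ± 12.4 RPM in S/L. The others that rose were Pou3f1, Fgf15, Foxd3, Nodal, Lefty1 and Lefty2. Pou3f1, a POU factor of the same stage, had 4.696, 2.01 and 1.895 RPM in MEKi/L, against 1.85, 0.827 and 0.324 RPM in GSK3i/L and stood far higher in S/L, at 38.1 ± 10.6 RPM. Its call ended without any 1 library other than GSK3i/L replicate 1 (adjusted p 0.0576 to 0.16), and without GSK3i/L replicate 3 its log2 fold change was 1.08 in place of 1.73. The call of Pou3f1 held in 9 of the 20 alternatives. It also ended under the 3 other scalings, without a filter on low values, without the intensity trend and in the 6 libraries alone. The 2 that fell were Sox3 and Sox11. With the replicate block 1 fell, and 0 fell without MEKi/L replicate 2, MEKi/L replicate 3 or any of the 3 GSK3i/L replicates.

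Neural genes were higher in MEKi/L, with 6 of 7 tested members up and 0 down, at a median of 1.63. The list had 13 members in the table, and the other 6 were below the filter. Sox1, an early neural plate factor, had 8.06, 7.92 and 7.39 RPM in MEKi/L, against 1.68, 2.84 and 1.301 RPM in GSK3i/L (log2 fold change 2.08 ± 0.40, limma adjusted p = 0.00198). Nes, encoding the intermediate filament nestin, had 88.8, 35.3 and 46.6 RPM in MEKi/L, against 17.1, 12.4 and 8.36 RPM in GSK3i/L, with MEKi/L replicate 1 highest (log2 fold change 2.12 ± 0.39, limma adjusted p = 0.00154). Neurod1 had 12.1, 9.79 and 12.04 RPM in MEKi/L, against 2.97, 3.06 and 1.301 RPM in GSK3i/L (log2 fold change 2.30 ± 0.36, limma adjusted p = 0.000446), Tubb3 113, 61.02 and 75.2 RPM in MEKi/L, against 34.95, 16.98 and 29.4 RPM in GSK3i/L (1.63 ± 0.31) and Ncam1 61.5, 33.03 and 36.2 RPM in MEKi/L, against 15.9, 12.2 and 14.5 RPM in GSK3i/L (1.57 ± 0.24). Pax6 had 17.8, 14.4 and 14.5 RPM in MEKi/L, against 8.67, 7.16 and 11.7 RPM in GSK3i/L (log2 fold change 0.79 ± 0.19, limma adjusted p = 0.0108, 0.0527 without GSK3i/L replicate 2 and 0.0789 without both replicates 1). Under the 3 other scalings 1 member was lower, and at an unadjusted p under 0.05 1 was lower as deposited. The sum of 5 neural markers (Sox1, Pax6, Nes, Neurog2 and Tubb3) was 118.7 to 227.3 RPM in MEKi/L and 39.43 to 62.41 RPM in GSK3i/L. The proneural gene Neurog2 was at 0 in both media.

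Homeodomain genes of the eye field and forebrain pointed the same way, with 4 of 6 tested members higher, 0 lower (also 0 at an unadjusted p under 0.05) and 2 not passing, at a median of 3.01. Of the 6, Lmx1b and Rax had passed the filter through MEKi/L alone, which favoured a difference. Of the other 4 members 2 were higher. The remaining 8 of the 14 members in the table were below the filter. Hesx1, a forebrain and pituitary repressor (chromosome 14, 27000362 to 27002329), had 28.4, 22.95 and 25.4 RPM in MEKi/L, against 1.31, 0.492 and 1.71 RPM in GSK3i/L (log2 fold change 4.63 ± 0.50, limma adjusted p = 1.94e-05). Lmx1b had 8.82, 5.25 and 5.497 RPM in MEKi/L, against 0.413, 0.318 and 0.324 RPM in GSK3i/L (log2 fold change 4.18 ± 0.53, limma adjusted p = 8.59e-05). Vax2, a factor of the ventral eye, had 20.5, 21.2 and 16.96 RPM in MEKi/L, against 3.61, 3.22 and 3.16 RPM in GSK3i/L (log2 fold change 2.55 ± 0.27, limma adjusted p = 1.85e-05), and Rax, the retina and anterior neural fold factor, 1.97, 1.08 and 1.23 RPM in MEKi/L, against 0.265, 0 and 0 RPM in GSK3i/L (log2 fold change 3.48 ± 0.65, limma adjusted p = 0.00158). In S/L the 4 genes averaged 0.328 ± 0.2499, 0.102 ± 0.177, 0.179 ± 0.0537 and 0.0715 ± 0.124 RPM, and in 2i/L 7.19 ± 1.13, 0.523 ± 0.234, 16.7 ± 4.95 and 0.328 ± 0.173 RPM.

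Extraembryonic genes showed small counts. Of 13 primitive endoderm genes 2 rose, 3 fell and 8 did not pass. Col4a1, a basement membrane collagen that ES cells also make, had 196, 92.1 and 88.9 RPM in MEKi/L, against 62.7, 29.03 and 21.2 RPM in GSK3i/L (log2 fold change 1.79 ± 0.36, limma adjusted p = 0.00285), and Sparc 477, 427 and 389.9 RPM in MEKi/L, against 258, 189 and 208 RPM in GSK3i/L (log2 fold change 0.99 ± 0.18, limma adjusted p = 0.00137). The 3 that fell, Gata6, Pdgfra and Cubn, were low in both media, and their number was 0 without GSK3i/L replicate 1 and 1 without MEKi/L replicate 1, MEKi/L replicate 2 or GSK3i/L replicate 2, while 4 members were higher without GSK3i/L replicate 1. Of 11 trophoblast genes 2 rose and 1 fell (Cdx2). Without GSK3i/L replicate 3, or with the replicate block, 2 fell. Tfap2c, an AP-2 factor, had 72.5, 59.5 and 57.3 RPM in MEKi/L, against 30.7, 22.7 and 26.3 RPM in GSK3i/L (log2 fold change 1.25 ± 0.19, limma adjusted p = 0.000306), and Gata3 1.27, 1.73 and 1.33 RPM in MEKi/L, against 0.4702, 0 and 0 RPM in GSK3i/L (log2 fold change 3.25 ± 0.59, limma adjusted p = 0.00139). The trophoblast markers Elf5 and Hand1 were below the filter and not tested. Elf5 had 0.127, 0 and 0.0948 RPM and Hand1 0.571, 0.432 and 0.0948 RPM in MEKi/L, and both were at 0 in GSK3i/L. Krt7 did not pass (log2 fold change 0.278, limma adjusted p = 0.781). Summed trophoblast markers were at 62.93 to 77.93 RPM in MEKi/L and 28.07 to 34.8 RPM in GSK3i/L, most of it Tfap2c.

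Few genes of the DNA methylation machinery passed. Of 14 writers and maintenance factors 1 rose (Dppa3), 1 fell (Dnmt3b) and 12 did not pass, at a median of 0.29, and each of the 2 calls ended in 4 or more of the fits without 1 library or both replicates 1. Dnmt3b, a de novo methyltransferase (chromosome 2, 153649450 to 153687730), had 131, 58.7 and 76.95 RPM in MEKi/L, against 246, 167 and 120.1 RPM in GSK3i/L, and the groups overlapped. Its log2 fold change was −1.02 ± 0.33 (limma adjusted p = 0.0427), with adjusted p 0.0517 with the replicate block, 0.165 without MEKi/L replicate 2, 0.125 without MEKi/L replicate 3, 0.131 without GSK3i/L replicate 1 and 0.0954 without GSK3i/L replicate 2. Dnmt3a had 62.5, 36.6 and 36.96 RPM in MEKi/L, against 38.3, 33.2 and 19.3 RPM in GSK3i/L (log2 fold change 0.60 ± 0.28, limma adjusted p = 0.18). Dnmt3l, their inactive partner, had 209.5, 126 and 127 RPM in MEKi/L, against 182, 164 and 160.0 RPM in GSK3i/L (log2 fold change −0.17 ± 0.35, limma adjusted p = 0.818). It overlaps Aire on the opposite strand, and whether reads were counted by strand is not stated. Uhrf1, which recruits the maintenance enzyme, had 548, 314 and 334 RPM in MEKi/L, against 632, 486 and 245 RPM in GSK3i/L (log2 fold change −0.13 ± 0.32, limma adjusted p = 0.848). For scale, Dnmt3l averaged 9.63 ± 4.98 RPM in 2i/L and 264 ± 50.9 RPM in S/L.

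Among 14 demethylation genes 3 rose (Tet3, Gadd45b and Idh1), 1 fell (Tdg) and 10 did not pass, at a median of 0.23. Under other scalings 1 or 2 rose. Tet3 lost its call in 7 of the 20 alternatives (adjusted p up to 0.122) and Idh1 in 6 (up to 0.144). Gadd45b, a stress-induced gene, had 15.7, 22.2 and 22.6 RPM in MEKi/L, against 3.82, 6.800 and 4.003 RPM in GSK3i/L (log2 fold change 2.08 ± 0.27, limma adjusted p = 8.96e-05). Tdg, the thymine DNA glycosylase, had 11.5, 10.4 and 10.05 RPM in MEKi/L, against 14.6, 15.1 and 16.96 RPM in GSK3i/L (log2 fold change −0.55 ± 0.16, limma adjusted p = 0.0282), and its call ended without MEKi/L replicate 2 (adjusted p 0.078), MEKi/L replicate 3 (0.0905), GSK3i/L replicate 2 (0.0552) or GSK3i/L replicate 3 (0.0761).

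Of 17 tested germline genes whose promoters are methylated in other tissues 8 rose, 0 fell (also 0 at an unadjusted p under 0.05) and 9 did not pass, at a median of 1.11, or 0.86 with Tex101 at its bound. Tex101 had passed the filter through MEKi/L alone, which favoured a difference, and of the other 16 members 7 rose. In the 6 libraries alone 5 of the list rose. Dazl, an RNA-binding protein of germ cells (chromosome 17, 50279394 to 50293599), had 31.1, 24.2 and 33.5 RPM in MEKi/L, against 6.93, 5.22 and 6.695 RPM in GSK3i/L (log2 fold change 2.23 ± 0.33, limma adjusted p = 0.000261). Rhox5, an X-linked homeobox gene, had 91.4, 111 and 75.6 RPM in MEKi/L, against 19.98, 21.6 and 28.3 RPM in GSK3i/L (log2 fold change 1.99 ± 0.31, limma adjusted p = 0.00043). Hormad1, a protein of meiotic chromosome axes, had 15.7, 26.6 and 26.9 RPM in MEKi/L, against 2.92, 3.57 and 9.601 RPM in GSK3i/L, with GSK3i/L replicate 3 above its 2 fellows (log2 fold change 2.27 ± 0.37, limma adjusted p = 0.000594). Brdt, a testis bromodomain protein, had 2.92, 3.38 and 3.13 RPM in MEKi/L, against 0.534, 0.586 and 0.182 RPM in GSK3i/L (log2 fold change 3.03 ± 0.47, limma adjusted p = 0.000419). The other 4 were Tex101, Tex11, Slc25a31 and Dpep3. In 2i/L Dazl averaged 17.3 ± 8.73, Rhox5 35.7 ± 4.85 and Hormad1 8.896 ± 1.89 RPM.

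Imprinted genes were lower more often than higher, with 8 of 23 tested members down, 3 up and 12 not passing, at a median of −0.31. In the 6 libraries alone 4 were lower. Igf2, the paternally expressed growth factor (chromosome 7, 142650766 to 142666816), had 3.93, 3.89 and 3.13 RPM in MEKi/L, against 77.8, 98.7 and 80.9 RPM in GSK3i/L, a wide gap between tight groups (log2 fold change −4.56 ± 0.25, limma adjusted p = 1.3e-07), with means of 9.31 ± 1.396 RPM in 2i/L and 23.4 ± 8.25 RPM in S/L. Phlda2 had 7.81, 10.5 and 4.93 RPM in MEKi/L, against 30.2, 37.4 and 47.03 RPM in GSK3i/L (log2 fold change −2.35 ± 0.25, limma adjusted p = 1.53e-05) and Mest 38.8, 21.4 and 21.7 RPM in MEKi/L, against 98.3, 85.3 and 94.5 RPM in GSK3i/L (log2 fold change −1.82 ± 0.23, limma adjusted p = 8.49e-05). Peg10, Grb10, Snrpn, Slc22a18 and Sgce completed the 8. Dio3, Zrsr1 and Usp29 rose. RPM values do not separate the parental alleles. Two-cell-like genes were near 0 in both media, with summed levels of 0.09477 to 0.1904 RPM in MEKi/L and 0 to 1.793 RPM in GSK3i/L, and 0 of 7 passed by limma (1 downward at an unadjusted p under 0.05).

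p53 targets were higher in MEKi/L, with 9 of 15 members up, 1 down and 5 not passing, at a median of 0.76. The 9 were Mdm2, Ccng1, Trp53inp1, Bbc3, Phlda3, Eda2r, Perp, Btg2 and Ei24, and 6 to 9 were higher in fits without 1 library. Ei24 had 246, 217 and 211 RPM in MEKi/L, against 101.7, 112 and 101.5 RPM in GSK3i/L (log2 fold change 1.09 ± 0.14, limma adjusted p = 7.55e-05). Trp53inp1 had 306, 336 and 310.5 RPM in MEKi/L, against 138, 167 and 152 RPM in GSK3i/L (log2 fold change 1.06 ± 0.22, limma adjusted p = 0.0037) and the antiproliferative Btg2 77.2, 77.1 and 82.5 RPM in MEKi/L, against 29.6, 40.9 and 30.1 RPM in GSK3i/L (log2 fold change 1.25 ± 0.24, limma adjusted p = 0.00204). Perp, a desmosomal and apoptosis gene, had 15.3, 21.2 and 17.2 RPM in MEKi/L, against 6.93, 3.22 and 9.47 RPM in GSK3i/L (log2 fold change 1.58 ± 0.32, limma adjusted p = 0.00338). Cdkn1a, which encodes the cell cycle inhibitor p21 and is the best known of the list, went the other way, with 87.00, 83.5 and 81.03 RPM in MEKi/L, against 173, 266 and 112 RPM in GSK3i/L (log2 fold change −1.05 ± 0.31, limma adjusted p = 0.0283). The groups did not overlap, but the adjusted p was 0.0531 without MEKi/L replicate 1, 0.0663 without MEKi/L replicate 2, 0.0832 without MEKi/L replicate 3, 0.136 without GSK3i/L replicate 2 and 0.0727 without both replicates 1.

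G1 regulators were balanced, with 4 of 17 up, 4 down and 9 not passing, at a median of −0.02. Cdk6, a cyclin D kinase (chromosome 5, 3343893 to 3523218), had 1.904, 1.58 and 2.65 RPM in MEKi/L, against 28.02, 20.8 and 22.9 RPM in GSK3i/L, far apart in the 2 media (log2 fold change −3.57 ± 0.22, limma adjusted p = 2.51e-07). Together with Ccnd2, Ccne1 and Cdkn1a it made up the 4 that fell, and 2 members fell without MEKi/L replicate 3. Besides Cdkn1a, 3 genes of cyclin-dependent kinase inhibitors were called, and these rose. Cdkn1b, encoding p27, had 129.8, 185 and 168 RPM in MEKi/L, against 47.1, 72.6 and 95.5 RPM in GSK3i/L (log2 fold change 1.21 ± 0.24, limma adjusted p = 0.00246), Cdkn2b 5.71, 6.55 and 5.97 RPM in MEKi/L, against 1.99, 2.54 and 2.77 RPM in GSK3i/L (log2 fold change 1.33 ± 0.27, limma adjusted p = 0.00288) and Cdkn2a 40.9, 47.2 and 31.8 RPM in MEKi/L, against 18.8, 22.7 and 23.5 RPM in GSK3i/L (log2 fold change 0.87 ± 0.19, limma adjusted p = 0.00458). Rb1 was the fourth that rose.

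In metabolism, 6 of 15 betaine and methionine cycle genes rose and 1 (Tdh) fell, at a median of 0.58. Besides Bhmt, Dmgdh, which degrades dimethylglycine, had 18.3, 18.1 and 18.5 RPM in MEKi/L, against 8.29, 8.38 and 8.15 RPM in GSK3i/L, nearly the same value in every library of a medium (log2 fold change 1.15 ± 0.21, limma adjusted p = 0.00136). Bhmt, Bhmt2 and Dmgdh are all on chromosome 13, and their 2i/L means were 20.5 ± 3.297, 36.6 ± 1.51 and 94.9 ± 4.83 RPM. Between 3 and 8 members rose without 1 library (3 without MEKi/L replicate 2, MEKi/L replicate 3 or GSK3i/L replicate 2), and 2 or 3 fell without GSK3i/L replicate 1 or 3. Pdk1, which turns pyruvate away from mitochondria, had 65.2, 45.2 and 42.7 RPM in MEKi/L, against 357, 231 and 254 RPM in GSK3i/L (log2 fold change −2.46 ± 0.23, limma adjusted p = 5.96e-06). It was 1 of 3 glycolysis and hypoxia genes of 22 that fell, with 2 that rose, Vegfa (0.83 ± 0.21) and Car9 (1.86 ± 0.35). Those that fell numbered 1 without MEKi/L replicate 3 or GSK3i/L replicate 2 and 7 without GSK3i/L replicate 3. The score fit had 9. Of 24 cholesterol biosynthesis genes 1 rose and 2 fell. Ebp had 12.6, 17.9 and 15.7 RPM in MEKi/L, against 44.1, 40.5 and 65.3 RPM in GSK3i/L (log2 fold change −1.68 ± 0.22, limma adjusted p = 0.000126), and 4 to 6 fell under other scalings and 8 with the score.

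The remaining lists held few calls. Of 17 ATF4 and amino acid stress genes 2 rose and 2 fell, among them Phgdh of serine synthesis, with 71.1, 111 and 66.6 RPM in MEKi/L, against 139, 180.5 and 219 RPM in GSK3i/L (log2 fold change −1.13 ± 0.25, limma adjusted p = 0.00505), and the stress gene Ddit4, with 141, 160.2 and 125 RPM in MEKi/L, against 69.5, 88.4 and 64.6 RPM in GSK3i/L (log2 fold change 0.94 ± 0.21, limma adjusted p = 0.00553). Atf3 was the other that rose, and its call ended without MEKi/L replicate 2 or 3 or GSK3i/L replicate 1 or 2, leaving 1 higher. Of 19 lysosome genes 3 rose and 4 fell (1 without MEKi/L replicate 3 or GSK3i/L replicate 2). Gpnmb, a target of MITF, had 15.04, 15.1 and 19.8 RPM in MEKi/L, against 3.03, 2.37 and 2.77 RPM in GSK3i/L (log2 fold change 2.61 ± 0.30, limma adjusted p = 3.92e-05), and Mitf itself 78.2, 46.3 and 55.4 RPM in MEKi/L, against 27.8, 17.1 and 35.6 RPM in GSK3i/L (log2 fold change 1.19 ± 0.27, limma adjusted p = 0.00615). Of 12 interferon and guanylate-binding genes Oas1a rose (log2 fold change 1.40 ± 0.31) and Bst2 fell (−1.58 ± 0.25). None of 10 mitochondrially encoded genes passed by limma, with 0 also at an unadjusted p under 0.05. Of the long transcripts 3 of 40 were higher, at a median of 0.39 (12 without GSK3i/L replicate 1), and of the short ones 0 of 40, at a median of −0.01, with 0 at an unadjusted p under 0.05. With the score in the fit these were 11 and 12.

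**Figure D5:**
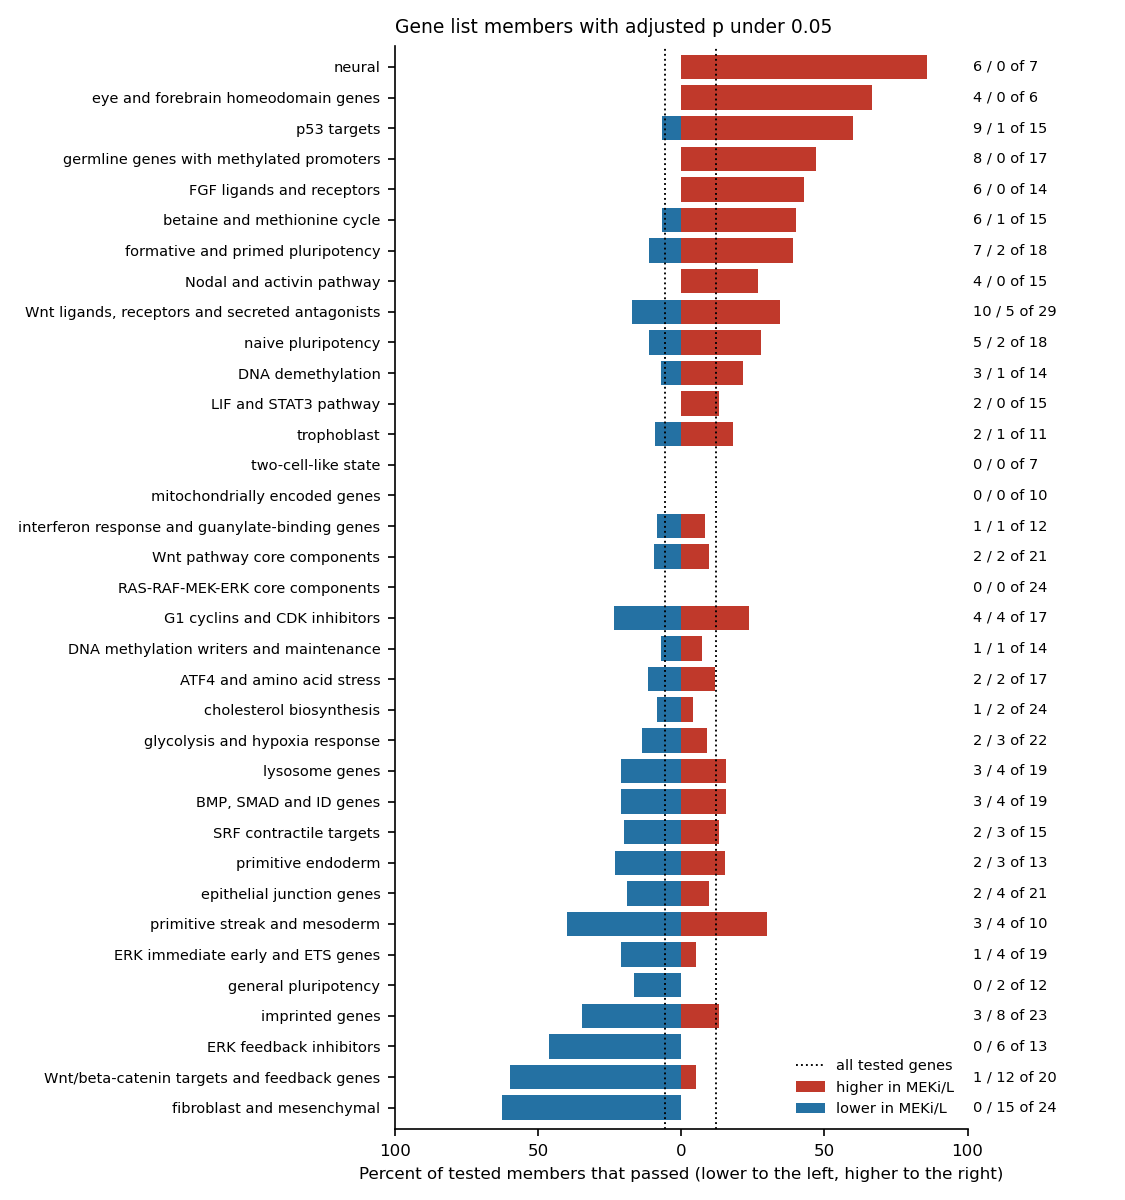
Percent of the tested members of each gene list that passed (limma adjusted p under 0.05), lower in MEKi/L to the left in blue and higher to the right in red, with the counts as higher / lower of tested. Dotted lines mark all tested genes, 5.65% lower and 12.2% higher, and the Wnt target list (12 of 20) reaches far left and the neural list (6 of 7) far right, as does to the left the fibroblast list, 8 of whose 15 lower members had passed the filter through GSK3i/L alone.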

How the data were processed

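The 6 libraries compared, and the 2i/L, S/L and GSK3i/L 24-day libraries, hold poly(A) RNA prepared with a directional kit and read as single ends, per the labels' protocols. Per the submitters' processing notes, HISAT2, Trim Galore 0.6.5, Bismark 0.22.3 (for bisulfite reads) and GRCm38 were used. For counting options and annotation the sources used here name nothing. The deposited table holds log2 RPM for 25965 genes, per the file headers and the values. In the MEKi/L, 2i/L and 24-day columns at least 99.96% of values were whole reads within 0.02 of a read, with 0 reads set at 0.9 of a read. The values of the S/L and GSK3i/L 8-day columns had been matched to 1 distribution (sorted values within 0.0831 above 2 RPM), and the labels do not describe this step. The comparison therefore crosses 2 treatments of the values, and no count test was run. GSK3i/L depths are approximate, read off genes with about 100 reads. Bisulfite samples were not analysed here, and 1 gene is not reported here.

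Log2 values of all 14 libraries entered 1 fit in limma 3.58.1 (R 4.3.3, intensity trend, robust variances) with group as the only term. The filter kept genes that reached 0.5 RPM in 3 or more libraries. All p-values are Benjamini-Hochberg adjusted over the 14980 genes and called under 0.05, for gene counts with a fold of at least 2. Log2 fold changes are MEKi/L minus GSK3i/L ± SE. Groups with 0 reads were set at a floor of 3 reads per library (on average 0.2302 RPM for MEKi/L and 0.3263 RPM for GSK3i/L), which covers counting error only and gives a lower bound. Groups with 1 to 3 reads in all have no fold.

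Labels give both groups replicates 1 to 3. Deviations of same-numbered libraries from their group means had r of 0.67, 0.12 and 0.40 for numbers 1 to 3. MEKi/L 2 with GSK3i/L 3 had 0.38, and the other differently numbered pairs had negative r. Replicates 1 of both media also shared a high long-minus-short score. These values do not settle whether the numbers pair the samples. The main fit is unpaired, and the replicate block was an alternative. No label says what a number stands for.

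Members and gene lists (730 entries, 718 found by symbol or identifier, some under older symbols such as Ctgf and Mll3) were chosen with earlier results of these data known, so counts over a list describe it and are not independent support. Named genes were the 12 largest rises and falls called at 2-fold without overlap that reached a mean of 5 RPM (predicted genes, clones and pseudogenes left out), all tested members of the 2 ERK lists and the Wnt target list, up to 6 called members of each other list, and 15 fixed genes. Other list members are named without values where they make up a count. The fit was tested on simulated data.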

Additional observations from a re-analysis of the deposited data

How the results depend on the processing

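The counts of 1295 higher and 624 lower genes ran from 1096 to 1406 and from 477 to 659 without 1 library, and were 1077 and 555 without both replicates 1, 998 and 435 from the 6 libraries alone, and 1303 and 622 with the replicate block. The block within the 6 libraries, added after seeing the data, gave 1438 and 646. A pseudocount of 1 RPM gave 409 lower genes, by damping genes near 0 reads. The size of such folds is uncertain beyond the SE given. Over the 20 alternatives the log2 fold change ran from −9.81 to −6.18 for Col3a1, −6.42 to −2.99 for Wnt5b, −6.286 to −2.995 for Porcn and 3.07 to 5.79 for Hhip. Of 170 named genes called, 116 kept their call in all 20 alternatives, 10 kept it in the 19 in which they were tested, and 0 reversed. The replicate block ended the call of Dnmt3b, gave Myc one, and changed no other call of a named gene. The fit of the 6 libraries alone ended 34.

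Log2 fold changes of 15 named genes that had not passed changed sign, and the cause was not tested. Under quantile normalization Dusp5 was at −0.10, Fosl1 at −0.045, Junb at −0.0073, Tcf7 at −0.099 and Notum at −0.064. Median centring gave −0.077 for Dusp5, −0.033 for Mcl1, −0.16 for Tcf7 and −0.087 for Notum, and trimmed mean scaling −0.022, −0.11 and −0.032 for Dusp5, Tcf7 and Notum. Tcf7 was at −0.11 with the long-minus-short score and −0.16 with score and block. Without 1 library or both replicates 1, ranges were −0.27 to 0.30 for Spred2, −0.049 to 0.34 for Dusp5, −0.31 to 0.55 for Fosl1, −0.62 to 0.37 for Jun, −0.035 to 0.39 for Junb, −0.55 to 0.24 for Etv1, −0.11 to 0.047 for Klf10, −0.27 to 0.18 for Tcf7, −0.10 to 0.32 for Notum, −0.095 to 0.57 for Sox2, −0.52 to 0.16 for Uhrf1, −0.33 to 0.12 for Gsk3a, −0.25 to 0.075 for Map2k2 and −0.061 to 0.49 for Ctnnb1. Depth limits genes near 3 reads per library.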
